A study of Mus musculus with 12 samples.

Results

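The genotype difference that both diets had in common was measured in liver RNA of 12 male mice, 6 Scly knockout (Scly KO) and 6 wild-type (WT). A model with genotype and diet was fitted to every gene across the 12 libraries, its genotype term was tested, and the genes described were those whose 6 Scly KO libraries all lay on the same side of the 6 WT libraries. This held for 23 of the 12009 genes tested (0.192%), out of 24795 in the table. In Scly KO, 13 of them were higher (0.108% of tested genes) and 10 were lower (0.0833%), a balance that turned with scaling and filter. In the test itself edgeR called 1 gene (0.00833%) at an adjusted p under 0.05, Scly, which was lower in Scly KO.

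All mice were males, titled C57BL6/N for WT and Scly KO for the knockouts. They ate a diet with selenium, as sodium selenite, at 0.08 ppm, which is mildly low (LS), or at 0.25 ppm, which is adequate (MS), for at least 8 weeks from weaning. The groups were WT LS (libraries S1 to S3), WT MS (S4 to S6), KO LS (S10 to S12) and KO MS (S7 to S9), with n = 3 in each. Scly KO and WT mice came from separately kept colonies, so genotype and colony cannot be told apart. In whole liver, fewer cells of a type and less RNA per cell cannot be told apart either.

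Selenocysteine lyase, the product of Scly, splits selenocysteine into alanine and a reduced form of selenium that can be used again to make selenoproteins. The liver takes up dietary selenium and sends it to other tissues as selenoprotein P. Hepatocytes also carry the enzymes and transporters that modify and export drugs, bile acids and lipids, many of which answer to nuclear receptors such as PXR and CAR and to the stress-responsive factor NRF2.

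Libraries held between 4797067 (S1) and 11762165 (S12) estimated counts. Totals averaged 9855430 in Scly KO and 7745010 in WT (exact permutation within diets, two-sided, p = 0.035, 0.193 adjusted over 11 library measures). S12 stood apart, with a mean Spearman correlation of 0.873 with the other libraries against 0.912 to 0.964 for those, and with summed bile duct markers of 953 CPM (normalized counts per 1e+06) against 183 to 414 CPM in the others. Most of that sum in S12 was Krt8, Krt18 and Spp1 (349, 292 and 253 CPM), and 7 of the 12 markers passed the filter. Krt19 was at 5.01 CPM in S12, and Onecut1, at 7.74 CPM, was below every WT library. In S1, Krt8 alone was at 267 CPM. S7 and S8 had 17.0% and 19.9% of their counts on the ribosomal RNA precursor Rn45s, against 2.45% to 9.23% in the rest. Hepatocyte markers summed to between 73788 CPM (S12) and 132197 CPM (S9). The smallest p that 400 arrangements allow is 0.005, so a single marker list could not have passed 0.05 once adjusted over 11 measures, and the 8 lists are given by their values. Neutrophil markers had the smallest p, with 2.14 to 11.9 CPM in Scly KO and 0.920 to 2.50 CPM in WT (p = 0.02, adjusted p = 0.193, exact permutation). Only 1 of these 10 markers passed the filter on low counts, and it was at 5.23 CPM in S12, so the sums are of scarce transcripts. The part of these library differences in the results was not tested beyond the values without those libraries.

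Scly, on chromosome 1 (91298338 to 91321080, plus strand, mm10), was at 83.1, 77.5 and 73.1 CPM in WT LS and at 92.2, 105 and 88.3 CPM in WT MS. In Scly KO it was at 4.97, 5.10 and 4.84 CPM on low selenium and at 6.35, 6.90 and 6.32 CPM on adequate selenium. Every knockout library thus lay far below every WT library, and the nearest libraries of the genotypes were 10.6-fold apart. The log2 fold change was -3.92 (SE 0.13, edgeR adjusted p = 1.0e-09), with -3.97 (SE 0.20) on low and -3.87 (SE 0.20) on adequate selenium. The interaction of genotype and diet had an unadjusted p of 0.700. A residual 44 to 87 counts a library remained at the locus in Scly KO.

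**Figure D1:**
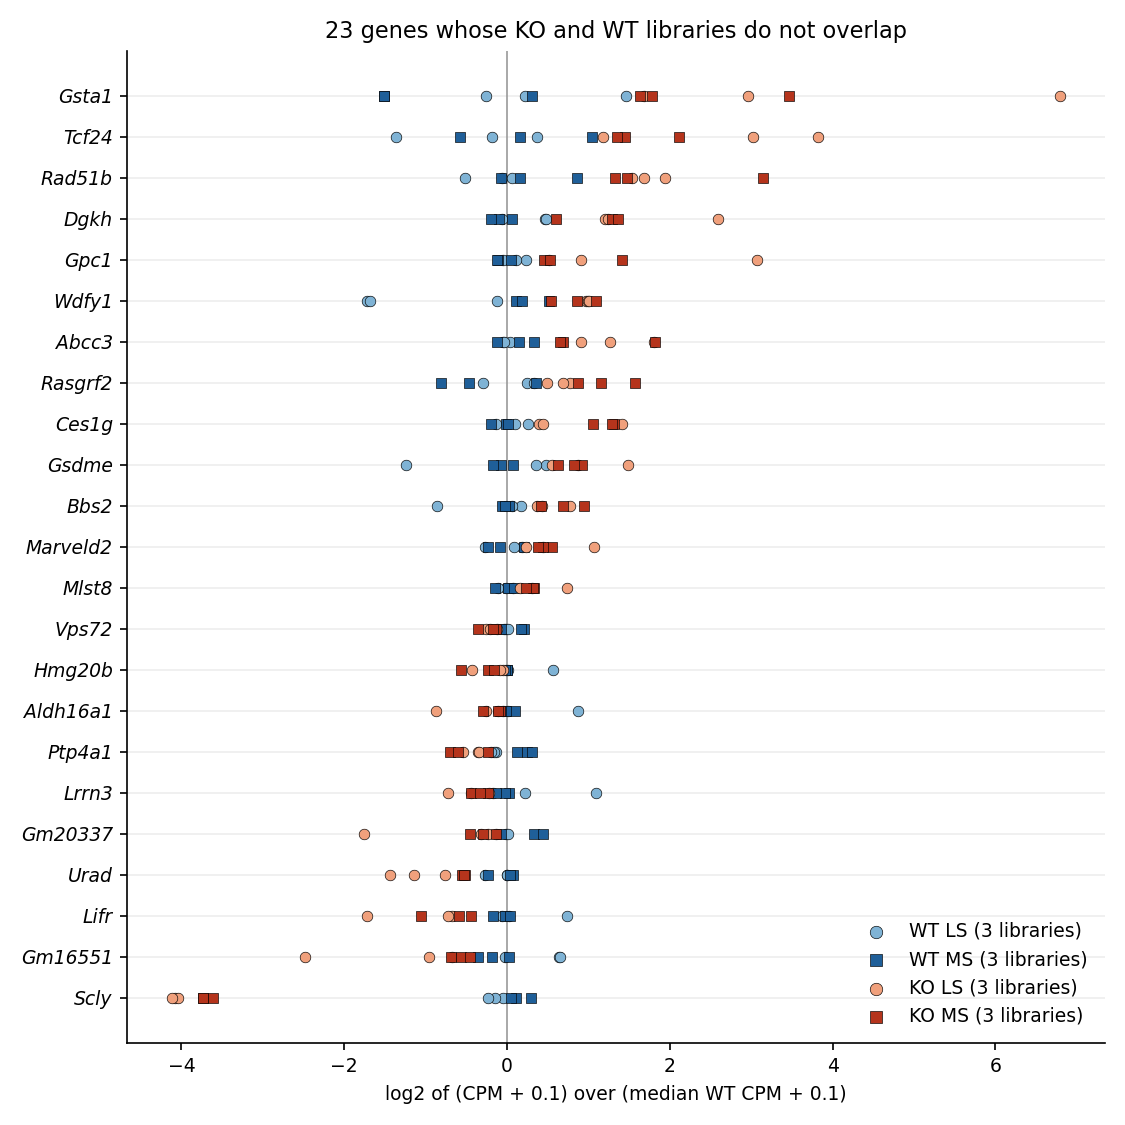
Each point is a library of the 23 genes that do not overlap, as log2 of its CPM plus 0.1 over the median WT CPM plus 0.1, and colour and shape give the group. Scly stands about 4 log2 units below WT in all 6 Scly KO libraries, while for most other genes the nearest libraries of the genotypes almost touch and S12 is often the farthest point.

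The other 22 genes had adjusted p of 0.273 or more by edgeR and are given as measured, without a call. The choice of genes by their separation fixes the direction of their differences, so their p-values are no independent support. Scaling also decides which genes separate, since with counts scaled to library totals alone 21 genes did, 8 of them shared (Scly, Rad51b, Ces1g, Urad, Gsta1, Lifr, Rasgrf2 and Gm16551). Of those 21, 8 were higher and 13 lower in Scly KO. With the dependence on transcript length and GC content taken out of each library 36 did, 14 of them shared, without Abcc3, Urad or Gsta1. With at least 10 counts in every library 18 separated, 8 higher and 10 lower. That filter dropped Rad51b, Gsta1, Dgkh, Tcf24, Rasgrf2, Gsdme and Bbs2, all higher, and Gm20337, which was lower. Gsta1, with at most 3.37 counts in any WT library, passed the main filter through Scly KO libraries. Unadjusted p was under 0.05 for 21 of the 23. Across all 12009 genes it was under 0.05 for 267 that were higher in Scly KO (2.22%) and for 138 that were lower (1.15%).

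Among the genes higher in Scly KO were 3 that handle drugs, lipids and conjugates. Abcc3, which encodes the basolateral export pump MRP3 for bile acid and glucuronide conjugates, was at 46.2, 43.6 and 44.2 CPM in WT LS and at 56.7, 41.7 and 50.2 CPM in WT MS. In Scly KO it was at 108, 158 and 84.8 CPM on low selenium and at 72.7, 70.9 and 160 CPM on adequate selenium. All 6 knockout values lay above the highest WT value, the lowest by 1.25-fold, and S11 and S9 were the highest. The log2 fold change was 1.21 (SE 0.23, edgeR adjusted p = 0.297), with 1.39 on low and 1.03 on adequate selenium. Abcc3 lies on chromosome 11 (94343295 to 94392976, minus strand).

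Ces1g, a carboxylesterase of the liver that hydrolyses lipid esters and drugs, was at 58.7, 77.1 and 69.4 CPM in WT LS and at 56.2, 63.9 and 65.5 CPM in WT MS. The Scly KO libraries had 85.2, 173 and 87.8 CPM on low selenium and 135, 161 and 159 CPM on adequate selenium. S10 and S12 came within 1.14-fold of the highest WT library (1.11-fold for S10), and the other knockout libraries were well clear of WT. The log2 fold change of Ces1g was 1.02 (SE 0.20, edgeR adjusted p = 0.300), and it was 1 of 5 separated genes that was larger on adequate (1.29) than on low (0.75) selenium.

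Gsta1, a glutathione S-transferase of the alpha class, was scarcely detected in WT, at 0.683, 0.230 and 0.139 CPM in WT LS and at 0.252 CPM in S4, with essentially no counts in S5 and S6. In Scly KO it was at 0.814, 2.12 and 31.6 CPM on low selenium and at 3.04, 0.784 and 0.876 CPM on adequate selenium. S12 alone carried 567 of its estimated counts, against at most 22.2 in any other library. The fitted log2 fold change was 4.89 (SE 1.08, edgeR adjusted p = 0.451) and was 2.98 without S12. Reads of Gsta1 can be shared with its near-identical neighbour Gsta2, and its counts were not whole numbers, so the split between the genes is uncertain.

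**Figure D2:**
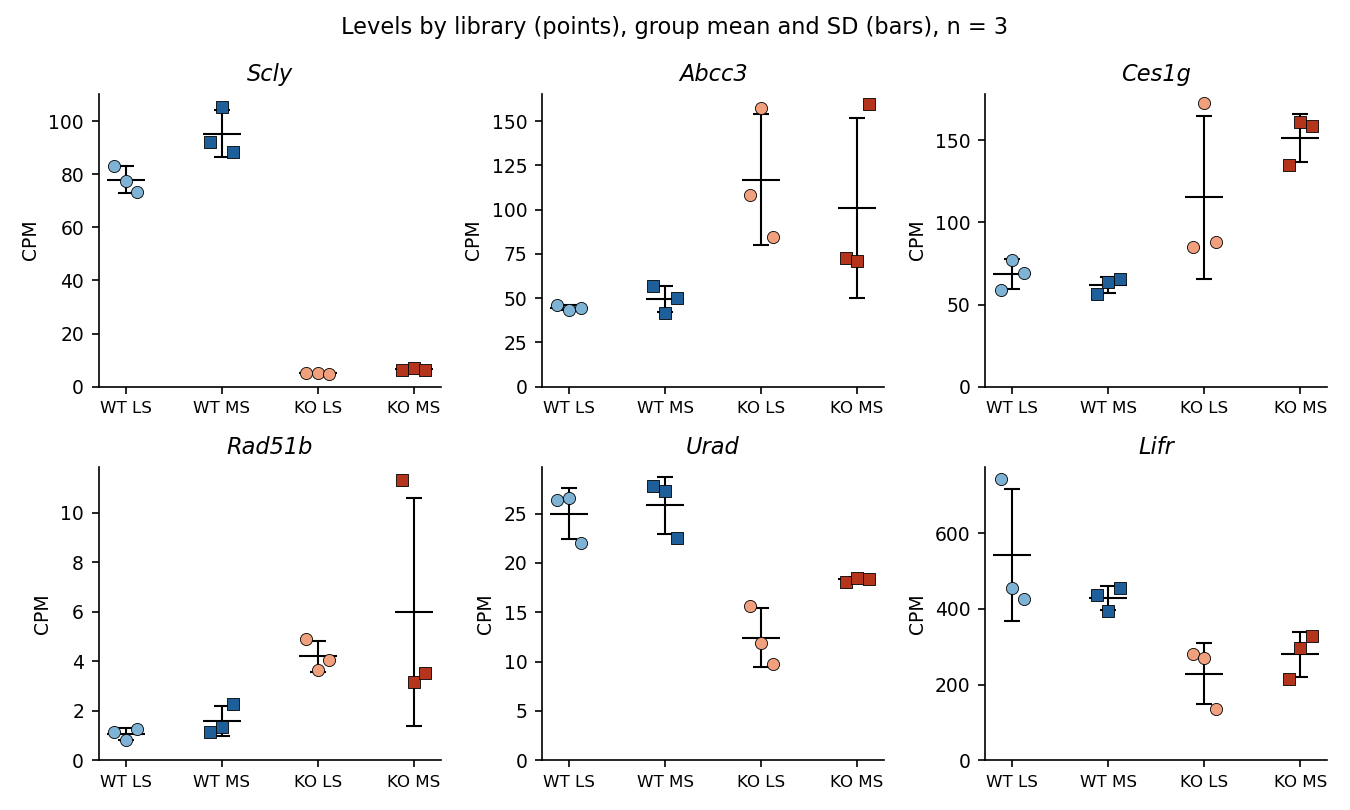
CPM of 6 genes by group, with points for libraries and bars for the mean and SD of 3 libraries, on axes that start at 0. Scly falls to 4.84 to 6.90 CPM in all Scly KO libraries, Abcc3, Ces1g and Rad51b lie above WT, and Urad and Lifr lie below it.

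Rad51b, which takes part in the repair of DNA breaks, had the smallest p after Scly. It was at 1.14, 0.805 and 1.25 CPM in WT LS and at 1.13, 1.34 and 2.25 CPM in WT MS, against 4.88, 3.66 and 4.06 CPM in KO LS and 11.3, 3.14 and 3.502 CPM in KO MS. These are low levels, from 5 to 19 counts a library in WT and 20 to 82 in Scly KO, and S7 was the highest. The log2 fold change was 1.95 (SE 0.35, edgeR adjusted p = 0.273), with 1.99 on low and 1.91 on adequate selenium, and was 1.55 without S7.

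Several genes of signalling and of gene regulation were also higher. Tcf24, a basic helix-loop-helix factor, ranged from 0.345 to 2.26 CPM in WT and from 2.50 to 16.1 CPM in Scly KO (log2 fold change 2.37, SE 0.54). Wdfy1, an endosomal FYVE-domain protein that takes part in Toll-like receptor signalling, was at 17.3, 5.64 and 5.82 CPM in WT LS and at 20.4, 27.0 and 21.4 CPM in WT MS. In Scly KO it was between 27.5 and 40.2 CPM, just above the highest WT library (1.02-fold), and its log2 fold change was 2.01 on low and 0.57 on adequate selenium. Wdfy1 thus varied with diet in WT more than in Scly KO, and its unadjusted interaction p was 0.0125, which did not pass adjustment over all genes in edgeR. Gpc1, the heparan sulfate proteoglycan glypican-1, was between 8.17 and 10.5 CPM in WT and between 12.1 and 23.8 CPM in 5 Scly KO libraries, with 75.1 CPM in S12. Its log2 fold change of 1.41 (SE 0.40) was 0.79 without S12. Dgkh, a diacylglycerol kinase, ranged from 0.829 to 1.39 CPM in WT and from 1.52 to 6.29 CPM in Scly KO, again with S12 highest.

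The other genes higher in Scly KO differed less or were at low levels. Rasgrf2, an exchange factor for Ras and Rac, ranged from 0.447 to 1.13 CPM in WT and from 1.25 to 2.76 CPM in Scly KO, and its log2 fold change was 1.05 (SE 0.32). Gsdme, the pore-forming protein gasdermin E, had a log2 fold change of 1.02 (SE 0.32) on 3 to 9 counts in WT and 11 to 51 in Scly KO. Bbs2, a subunit of the BBSome of primary cilia, had 0.72 (SE 0.25) on 3 to 13 counts in WT. Such counts leave little room to tell libraries apart. Marveld2, the tight junction protein tricellulin, went from 8.88 to 12.4 CPM in WT and from 12.6 to 22.7 CPM in Scly KO (log2 fold change 0.55, SE 0.17). Mlst8, a subunit shared by both mTOR complexes, went from 4.74 to 5.59 CPM in WT and from 5.88 to 8.85 CPM in Scly KO (0.38, SE 0.16). S12 was the highest library for both, and with S12 left out and the others scaled anew Marveld2 no longer separated the genotypes.

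Among the 9 genes besides Scly that were lower in Scly KO, Urad and Lifr had the smallest p. Urad encodes the decarboxylase of the final step of uric acid breakdown to allantoin, which mice carry out in the liver. It was at 26.4, 26.6 and 22.0 CPM in WT LS and at 27.8, 27.3 and 22.5 CPM in WT MS, against 15.6, 11.9 and 9.74 CPM in KO LS and 18.1, 18.5 and 18.4 CPM in KO MS. The knockout libraries lay below WT on both diets, farther below on low selenium, by a log2 fold change of -1.01 (SE 0.22) against -0.50 (SE 0.22), with no call for the interaction (unadjusted p = 0.116). Over both diets the log2 fold change of Urad was -0.75 (SE 0.16, edgeR adjusted p = 0.451).

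Lifr, the receptor chain through which leukaemia inhibitory factor and related cytokines signal, was at 744, 455 and 427 CPM in WT LS and at 437, 395 and 456 CPM in WT MS. In Scly KO it was at 280, 271 and 135 CPM on low selenium and at 214, 297 and 328 CPM on adequate selenium. S1 was the highest and S12 the lowest library, and the nearest libraries of the genotypes were 1.20-fold apart. The log2 fold change was -0.93 (SE 0.24, edgeR adjusted p = 0.892), and it lay between -1.02 and -0.76 with any library left out. Lifr lies on chromosome 15 (7129572 to 7197489, plus strand) and had the highest CPM of the 23 genes, with no correction for length.

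The remaining genes lower in Scly KO had small differences. Ptp4a1, a protein tyrosine phosphatase of the PRL family that is induced early in liver regeneration, was at 99.3, 97.8 and 94.9 CPM in WT LS and at 119, 129 and 136 CPM in WT MS. In Scly KO it was between 67.4 and 92.6 CPM, and its log2 fold change was -0.49 (SE 0.15). Ptp4a1 shares its strand and position with Gm13363 in the table, so their reads may be split. Hmg20b, a subunit of the LSD1 and CoREST repressor complex, and Vps72, a subunit of complexes that exchange histone H2A.Z, had log2 fold changes of -0.34 (SE 0.15) and -0.26 (SE 0.13). Aldh16a1, of the aldehyde dehydrogenase family, ranged from 56.2 to 108 CPM in WT and from 32.4 to 55.8 CPM in Scly KO, and the nearest libraries were 1.01-fold apart. Aldh16a1 overlaps Pih1d1, and Lrrn3, a leucine-rich repeat protein at 1.54 to 5.69 CPM, overlaps Immp2l, both on the opposite strand. The log2 fold changes of Aldh16a1 and Lrrn3 were -0.44 (SE 0.20) and -0.62 (SE 0.26), or -0.25 and -0.39 without S1. Those of the predicted genes Gm16551 and Gm20337 were -1.05 (SE 0.32) and -0.63 (SE 0.31). Gm16551 was the other separated gene with an interaction p under 0.05 (0.0357, unadjusted), with -1.69 on low and -0.41 on adequate selenium.

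Ces1g and Gsta1 stand on lists of NRF2 targets, and Lifr had the highest CPM of the separated genes, so the 250 bases before their transcription starts are shown, from the RefSeq annotation of GRCm38.p6. Capitals mark matches, on either strand, to the core of the antioxidant response element TGACNNNGC, the nuclear receptor half-site AGTTCA or the TATA motif TATAAA.
Ces1g, minus strand, chr8:93337210-93337459: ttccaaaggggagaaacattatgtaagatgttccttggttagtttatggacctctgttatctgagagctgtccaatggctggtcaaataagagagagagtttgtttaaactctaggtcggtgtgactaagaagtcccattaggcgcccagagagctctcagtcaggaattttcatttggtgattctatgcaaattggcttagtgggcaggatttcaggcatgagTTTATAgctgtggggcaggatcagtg
Gsta1, plus strand, chr9:78230419-78230668: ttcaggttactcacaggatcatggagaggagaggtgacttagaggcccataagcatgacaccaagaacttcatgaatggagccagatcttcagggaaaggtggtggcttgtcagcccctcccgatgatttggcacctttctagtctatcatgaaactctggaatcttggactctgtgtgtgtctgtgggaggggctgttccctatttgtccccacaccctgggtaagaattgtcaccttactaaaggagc
Lifr, plus strand, chr15:7129322-7129571: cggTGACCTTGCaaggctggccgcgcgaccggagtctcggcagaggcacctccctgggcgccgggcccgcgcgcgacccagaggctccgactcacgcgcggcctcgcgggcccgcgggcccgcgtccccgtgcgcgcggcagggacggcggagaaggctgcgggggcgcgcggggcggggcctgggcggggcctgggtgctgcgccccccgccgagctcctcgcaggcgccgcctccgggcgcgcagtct
The Ces1g window held a reversed TATAAA between 21 and 26 bases before the start, and the Gsta1 window held none of the 3 motifs. The Lifr window shown held TGACNNNGC between 239 and 247 bases before the start. Another RefSeq start of Lifr, with its window at chr15:7140292-7140541, is not shown and held none of the 3 motifs. The RefSeq table had 23 windows for 16 of the 23 genes, and a gene is counted here if any of its windows matched. The percentages count windows instead, so genes and percentages are not in the same unit. TGACNNNGC was found before 1 of them (Lifr) and in 10.2% of all 32851 windows, AGTTCA before 1 (Rad51b) and in 11.84%, and TATAAA before 3 (Ces1g, Marveld2 and Ptp4a1) and in 12.4%.

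The diets were then compared, since the genotype term averages over them. All 23 separated genes had the same sign on both diets, as their choice requires. Of these, 18 had the larger log2 fold change on low selenium, as also held for 70.8% of all genes tested, and 2 had an unadjusted interaction p under 0.05, against 6.73% of all genes. Over all 12009 genes the log2 fold changes on low and on adequate selenium, which share no libraries, had a Spearman correlation across genes of -0.243, and 39.5% had the same sign on both. This rested on single libraries, with correlations of 0.273 without S7, 0.030 without S4, 0.489 without S7 and S8, and -0.488 without S9. Genes are not independent replicates and all values share the normalization. By edgeR, 1 gene passed on low and 1 on adequate selenium, Scly in both, with 1351 and 111 genes at an unadjusted p under 0.05. The interaction passed for 0 genes by edgeR and by DESeq2, with 808 at an unadjusted p under 0.05, and for 2081 by limma-voom with sample weights. Those weights were 0.164 for S12, 0.234 for S7 and 0.384 for S1, against 2.40 to 2.92 for S2, S3, S5, S6 and S11. Calls by limma-voom thus rest little on S12, S7 and S1.

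**Figure D3:**
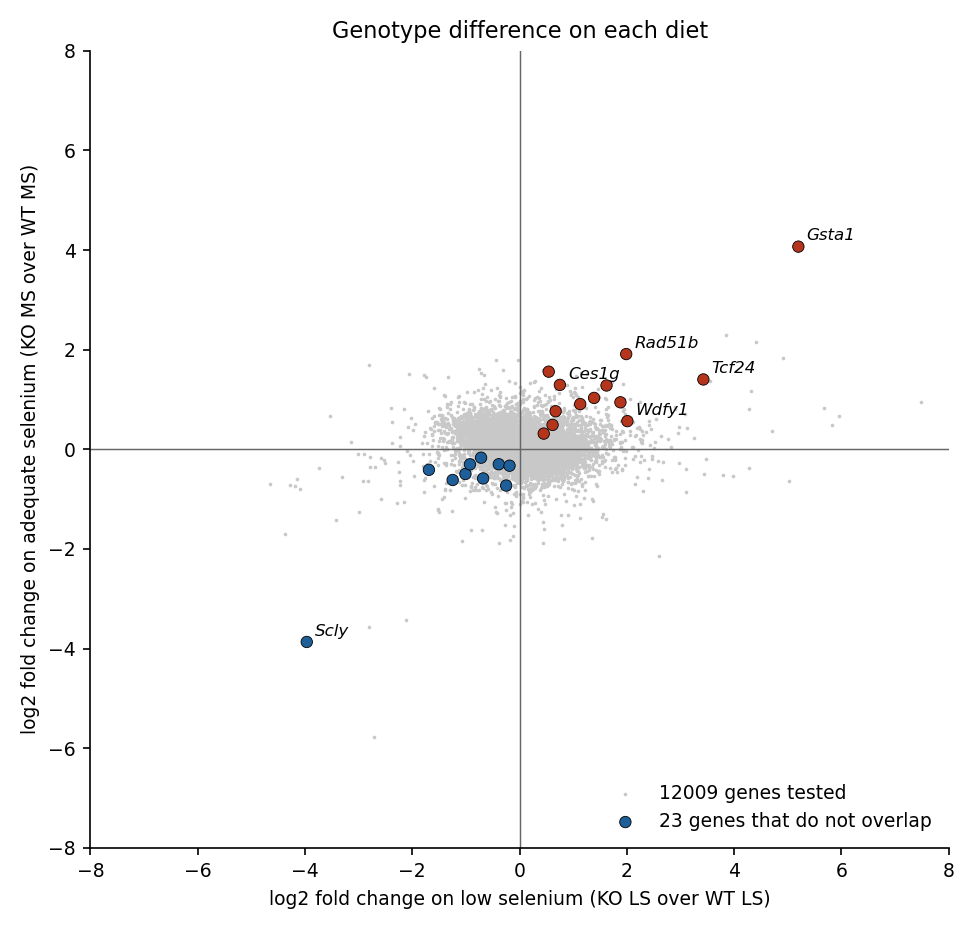
Each point is a gene, with its log2 fold change (Scly KO over WT) on low selenium on the x axis and on adequate selenium on the y axis. Genes that do not overlap between genotypes are coloured red (higher) or blue (lower) and lie in the quadrants of equal sign. Over the 12009 genes the Spearman correlation is -0.243 with all libraries, and between -0.488 (without S9) and 0.273 (without S7) with a library left out. A further limit is that 1 gene lies beyond the plotted limit of 8.

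A further 254 genes would have separated the genotypes but for 1 library. S7 was that library for 79 of them and S4 for 42, against 7 to 19 for each other library. Arl4d, a small GTPase of the ADP-ribosylation factor family, was between 35.6 and 47.4 CPM in 5 WT libraries and at 15.1 CPM in S5, against 8.32 to 21.5 CPM in Scly KO. Its log2 fold change was -1.62 (SE 0.30, edgeR adjusted p = 0.273), and edgeR called it without S5 and without S9. Cebpd, a C/EBP factor of early adipogenesis and of inflammation, was at 5.91 CPM in S4 and at 9.16 to 13.4 CPM in the other WT libraries, against 4.97 to 6.62 CPM in Scly KO. Of the other genes of this kind, the log2 fold changes were -3.54 (SE 0.65) for Hist1h4n, -3.48 (SE 0.68) for Ces2b, -3.06 (SE 0.63) for Sertad4, -2.78 (SE 0.61) for Gadd45g and 3.12 (SE 0.70) for Cyp2a22. Hist1h4n, Sertad4 and Cyp2a22 lie outside the rule for named genes.

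The choice of test decided how many genes were called. DESeq2, which the study names, called 16 genes (0.133%), 7 of them separated, and limma-voom with sample quality weights called 14 (0.117%), 6 of them separated. Both called 7 genes, of which Scly, Abcc3, Ces1g, Rad51b and Urad were separated and Arl4d and Cebpd were 1 library short. For Abcc3, the adjusted p was 0.000981 by DESeq2 and 0.00256 by limma-voom, against 0.297 by edgeR, and for Urad it was 0.0129 and 0.0449 against 0.451. DESeq2 also called Gsta1 (0.0129) and Tcf24 (0.00683), and limma-voom Wdfy1 (0.0330).

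Lists of genes were read by their counts beside those of all genes, which had a median log2 fold change of 0.03 with 56.2% above 0. Apart from Scly, which was left off the lists, no list held a gene called by edgeR. None of 20 selenoproteins tested had an unadjusted p under 0.05, and their median was -0.06. Within the diets it lay on opposite sides of 0, at -0.34 on low selenium and at 0.19 on adequate selenium. The smallest p among them was that of Txnrd2, mitochondrial thioredoxin reductase (-0.16, SE 0.16). Sephs2, which makes the selenium donor of selenocysteine synthesis, was between 901 and 1022 CPM in WT and between 860 and 992 CPM in Scly KO, apart from 517 CPM in S12. Of 22 genes of selenium supply and selenocysteine synthesis, 1 was higher and 2 were lower at an unadjusted p under 0.05. These were Gclc, the catalytic subunit that makes the glutathione precursor (0.49, SE 0.16), Lrp2, the endocytic receptor megalin (-1.69, SE 0.46), and Selenbp2, a selenium-binding protein (-2.69, SE 0.86). Selenbp2 was at 668, 149 and 162 CPM in WT LS, at 8.56, 46.7 and 54.8 CPM in WT MS and at 10.02 to 38.0 CPM in Scly KO. Its difference on low selenium (-4.66) was larger than on adequate selenium (-0.69), with an unadjusted interaction p of 0.00137.

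For the enzymes around the products and substrates of selenocysteine lyase, few single genes stood out. Of 26 enzymes of alanine, aspartate and glutamate 0 had an unadjusted p under 0.05, of 31 of glycine, serine and one-carbon units 1 did (Sdsl, a serine dehydratase-like enzyme, -0.49, SE 0.18), and of 10 of cysteine oxidation and taurine 1 did (Tst, the sulfurtransferase rhodanese, -0.43, SE 0.19). Asns, asparagine synthetase, and Psat1, of serine synthesis, were at 20.04 and 29.9 CPM in S12. In the other libraries Asns was at 0.447 to 1.38 CPM and Psat1 at 1.63 to 4.69 CPM. Their log2 fold changes of 1.58 and 1.40 thus rested on S12.

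Targets of NRF2 and of PXR and CAR included several of the separated genes. Of 35 NRF2 targets tested, 14 were higher and 1 lower at an unadjusted p under 0.05, 3 were separated (Abcc3, Ces1g and Gsta1) and the median was 0.27. Osgin1, an oxidative stress-induced growth inhibitor, was between 16.1 and 41.3 CPM in WT and between 19.2 and 125 CPM in Scly KO, so the genotypes overlapped (1.12, SE 0.29). Of 35 PXR and CAR targets, 9 were higher and 0 lower, 2 were separated and the median was 0.38, with Cyp3a59 (0.89, SE 0.22) and the organic anion uptake carrier Slco1a4 (1.11, SE 0.27) after Abcc3 and Gsta1. The lists share members, such as Abcc3, Gsta1 and Gsta2. By diet the medians were 0.64 on low and 0.25 on adequate selenium for NRF2 targets, and 0.43 and 0.28 for PXR and CAR targets. The medians without S12 were 0.25 for NRF2 targets and 0.36 for PXR and CAR targets, and without S7, S8 and S12 they were 0.14 and 0.34. Among 15 carboxylesterases the differences ran both ways, with Ces1g and the pseudogene Ces2d-ps higher, Ces2b and Ces4a lower at an unadjusted p under 0.05 and a median of 0.00, which was -0.23 on low and 0.28 on adequate selenium.

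**Figure D4:**
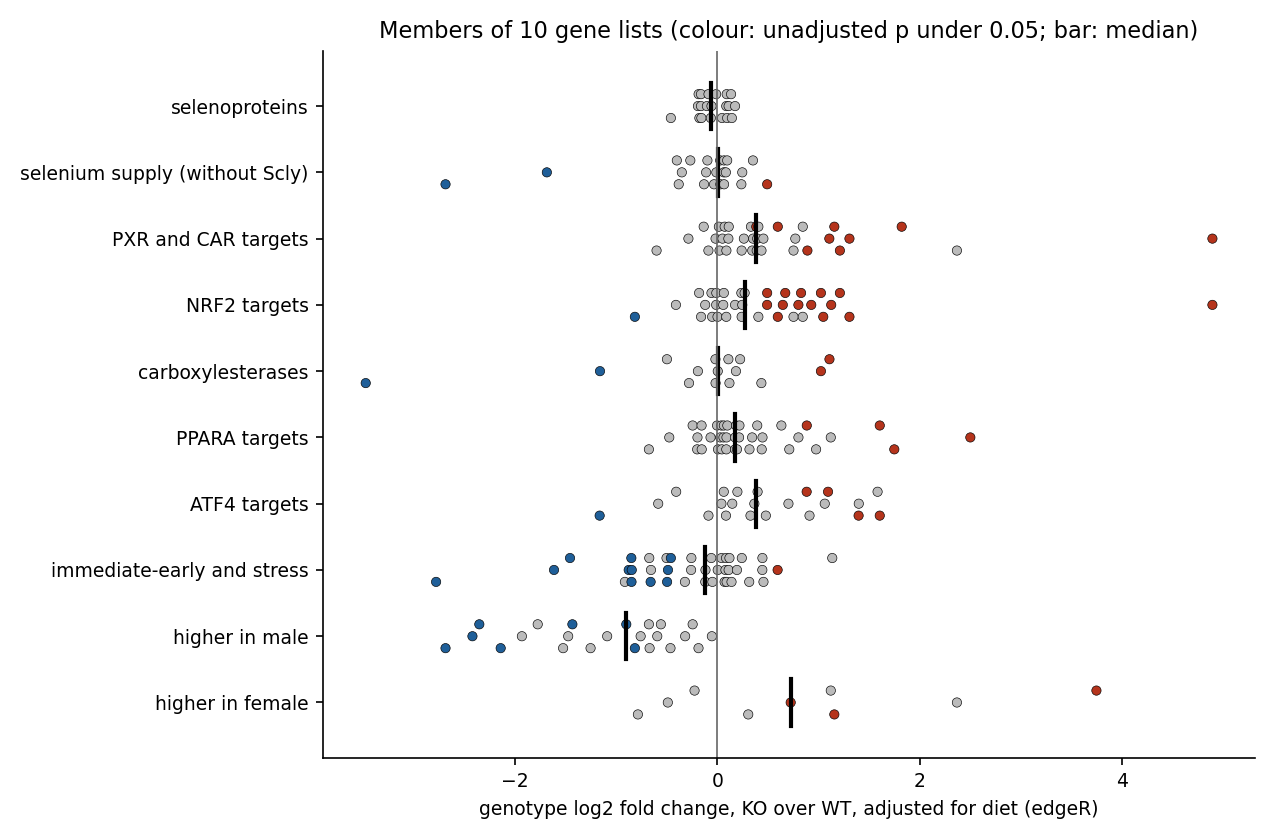
Members of 10 lists by their genotype log2 fold change (Scly KO over WT, adjusted for diet, edgeR), coloured where the unadjusted p is under 0.05, with a bar at the median. Selenoproteins have a median of -0.06 (-0.34 within low and 0.19 within adequate selenium). The 23 genes that are higher in male liver include families that may share reads. All 23 lie below 0 over both diets, though not all do within a diet. Their median is -0.90 (-1.79 within low and -0.45 within adequate selenium).

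Immediate-early and stress-induced genes were mostly lower where they differed, 11 of 39 at an unadjusted p under 0.05 against 1 higher, and 1, Ptp4a1, was separated. They included Arl4d, Cebpd, Gadd45g, a growth arrest gene induced by DNA damage, and Dusp1, a phosphatase of MAP kinases (-1.46, SE 0.36). Their median was -0.12 and depended on the libraries, at -0.46 without S12 and 0.05 without S7 and S8. By diet it was 0.16 on low and -0.64 on adequate selenium, so the list as a whole was not lower on both. Of 22 ATF4 targets 4 were higher and 1 lower, with a median of 0.38 that was 0.07 without S12, and of 0.66 on low and -0.02 on adequate selenium. Eif4ebp3, a binding protein of the translation factor eIF4E (-1.16, SE 0.28), and Inhbe, a subunit of activin E (0.88, SE 0.24), were each 1 library, S4, short of separation. Trib3 (1.39, SE 0.53) and Fgf21 (1.60, SE 0.66) were highest in S12, at 114 and 35.3 CPM. Their log2 fold changes without S12 were 0.44 and 0.57. In the other Scly KO libraries Trib3 was at 8.23 to 16.2 CPM, against 4.78 to 12.3 CPM in WT, and Fgf21 at 1.26 to 9.83 CPM, against 1.56 to 4.57 CPM in WT.

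Genes with a sex bias in mouse liver were compared because all animals were male. All 23 genes tested of the list higher in males had a log2 fold change below 0 for the genotype term over both diets (at most 3 were above 0 in any setting run). Of these, 7 had an unadjusted p under 0.05, and the median was -0.90. Many of the 23 belong to families of similar genes, such as the major urinary proteins. Estimated counts of Mup12 and Ugt2b38 were not whole numbers in all 12 libraries. Reads may thus be shared between members, so the 23 are not separate observations. Within a diet the 23 were not all below 0, and the highest were 0.072 on low and 0.28 on adequate selenium. Mup12, a major urinary protein, was at 143, 41.9 and 43.2 CPM in WT LS and at 11.3, 30.4 and 31.7 CPM in WT MS, against 10.2, 18.5 and 0.0557 CPM in KO LS and 9.39, 15.8 and 5.84 CPM in KO MS. S1 was the highest and S12 the lowest library for Mup12, and WT and Scly KO overlapped only on adequate selenium. Ugt2b38, a glucuronosyltransferase (-2.35, SE 0.82), and the complement component C6 (-0.90, SE 0.31) followed. The median of the list was -1.79 by the low and -0.45 by the adequate selenium comparison, -0.68 without S12, -0.84 without S1 and -1.56 without S7 and S8. Of 22 genes listed as higher in females, only 9 passed the filter on low counts. Scarce genes can pass it through the group where they are high. Cyp2b9, for example, was at 0 to 0.139 CPM in WT LS and at 94.7 CPM in S12. The count and median of this list are therefore no evidence of a shift. Of the 9 tested, 3 were higher in Scly KO at an unadjusted p under 0.05, and 3 were below 0. The median was 0.72, with 0.83 on low and -0.13 on adequate selenium. The 3 genes higher at that p were the cytochromes P450 Cyp2c38 (1.15, SE 0.29) and Cyp2a4 (3.74, SE 1.60) and the peroxisomal transporter Abcd2 (0.72, SE 0.21). Cyp2a4 was at 485 CPM in S12 and at most 32.8 CPM elsewhere.

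Genes of lipid handling gave smaller counts. Of 38 PPARA targets 4 were higher at an unadjusted p under 0.05 (median 0.17, 0.27 on low and 0.13 on adequate selenium), led by Vnn1, the pantetheinase vanin-1 (0.88, SE 0.27), and Cyp4a14, a fatty acid omega-hydroxylase (2.50, SE 0.87). Of 21 genes of PPARG and lipid droplets 3 were higher and 1 lower (median 0.20, 0.31 on low and 0.081 on adequate selenium). Pparg itself, the nuclear receptor of fat storage, was at 1.37, 1.96 and 2.91 CPM in WT LS and at 8.43, 4.02 and 5.33 CPM in WT MS, against 8.14, 8.37 and 20.5 CPM in KO LS and 9.66, 3.14 and 13.8 CPM in KO MS. The genotypes were apart on low selenium and overlapped on adequate selenium (1.5 over both, SE 0.46).

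The study picked 15 genes for qPCR partly by their p-values in this same RNA sequencing, so their counts are no independent evidence, and all were among the genes tested. Of these 15, 2 (Abcc3 and Ces1g) were separated, 12 had an unadjusted p under 0.05, and 10 had a log2 fold change above 0 and 5 below 0. The qPCR genes with the largest differences on the log2 scale were Lcn2, the siderophore-binding lipocalin 2 (3.49, SE 1.05), and Mt2 (2.39, SE 1.26) and Mt1 (1.93, SE 1.01), the metallothioneins, beside Selenbp2. Lcn2 was at 0.416 to 1.01 CPM in WT and above 50 CPM in S10 and S12, at 54.0 and 51.4 CPM, with 0.770 to 2.33 CPM in the other Scly KO libraries. Ppl (1.39, SE 0.46), Angptl6 (-0.70, SE 0.31), Slc25a25 (-0.85, SE 0.26), Acot3 (1.12, SE 0.54) and Abcb1a (1.82, SE 0.51) were also on the list, as were Arl4d, Eif4ebp3, Inhbe and Pparg, described above. Among genes the paper named as changed by genotype in male qPCR, Abcc3 and Pparg were higher and Eif4ebp3 and Selenbp2 lower, as here. Arl4d was higher and Inhbe lower by qPCR, opposite to the counts here. The male qPCR means of Lcn2 were lower in Scly KO on both diets, also opposite to the counts. The paper found no significant effect of genotype on Lcn2 in males. The qPCR means of Abcb1a, Abcc3, Acot3, Arl4d, Ces1g (Cesg1 in the paper), Mt1 and Mt2 were higher in Scly KO on adequate selenium only.

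Separated genes were also placed on the genome. Chromosome 1 held 5 of the 23, against 5.79% of genes tested, and these were Scly, Gpc1 at 1.51 Mb from it, Wdfy1 at 11.5 Mb, Ptp4a1 at 60.3 Mb and Tcf24 at 81.3 Mb. Within 10 Mb of Scly, 83 other genes were tested, of which 49 were above 0 and 34 below 0, 3 had an unadjusted p under 0.05 and 1, Gpc1, was separated. Their median log2 fold change was 0.05. Nnt, a mitochondrial transhydrogenase that some C57BL/6 substrains lack in part, was measured in every library, at 65.6 to 196 CPM (0.30, SE 0.21).

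**Figure D5:**
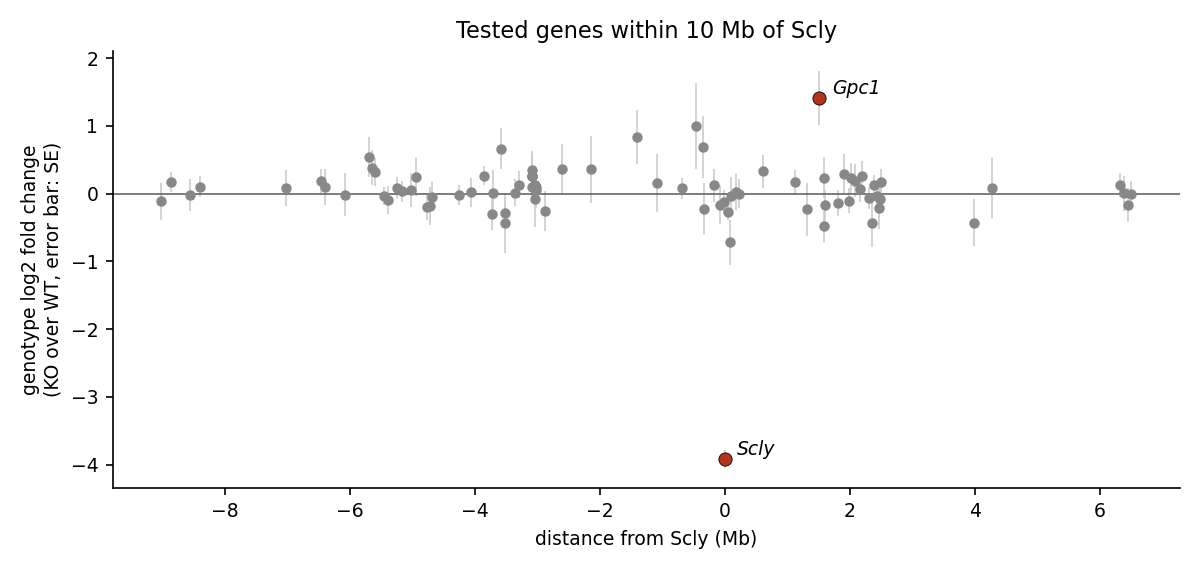
Genotype log2 fold change (Scly KO over WT, with its SE) of the tested genes within 10 Mb of Scly, by distance in Mb. Scly at -3.92 and Gpc1 at 1.41 are the genes whose genotypes do not overlap, and the other genes lie between -0.72 and 1.002.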

How the data were processed

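RNA of 12 mouse livers was sequenced, 3 for each genotype and diet. According to the paper, poly(A) RNA was made into directional libraries, and the reads went through FastQC and Cutadapt, then STAR on mm10 and the E/M counter of Partek Flow. The submitters' processing notes name the same tools and DESeq2. For versions and annotation, the sources used here give nothing. What the authors deposited were estimated counts, unscaled, 89.5% of them whole numbers. Their table of comparisons was not used. Columns name a group and a library number (0 value columns were left without a group), and nothing tells whether libraries of a group differ beyond the animal, so p-values measure only the spread between these libraries. Of 24795 genes, 26 had symbols stored as dates and were left as they were.

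Counts were rounded, filtered with filterByExpr (minimum count 10, 12009 genes kept) and scaled by TMM to counts per 1e+06 (CPM). Genotype plus diet was fitted by the quasi-likelihood test of edgeR 4.0.16 (R 4.3.3), with p-values adjusted by Benjamini-Hochberg and called under 0.05. Models with an interaction, or with a coefficient for each group, gave the values by diet. SE is the log2 fold change over the root of F. Library measures were tested by exact permutation within diets (400 arrangements, smallest p 0.005). Alternatives were DESeq2 1.42.0, limma-voom with sample quality weights (limma 3.58.1), other scaling and filters, and libraries left out. Those without S7 and S8 or without S7, S8 and S12 leave S9 alone in KO MS, where its variation is taken from the other groups. For counts of separated genes, these and removal of the dependence on transcript length and GC content (splines, 4 degrees of freedom, transcripts for 98.8% of genes) were added after seeing the data, as were list medians under each setting. DESeq2 gave no adjusted p for 103 genes. The tests were first checked on simulated counts.

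Members, lists and tests were chosen with earlier results of these data known. The text names Scly, the 23 separated genes, up to 4 members of smallest p of each list described by name, Nnt, Rn45s and the genes measured by qPCR. Genes besides these were named after their values were seen. Positions are on mm10, 1-based. Low counts limit precision, with fewer than 20 counts a library in WT for several of the genes named.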

Additional observations from a re-analysis of the deposited data

Results flagged for a closer look

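In groups of 6 libraries of a genotype (both diets together), the highest or lowest library was set against the gap to its nearest neighbour, a check that chance meets in about 1 in 20 groups. Of 68 groups, from the 23 separated genes and 11 library measures, 25 had a library apart, and it was S12 in 12, S1 in 11, S7 in 1 and S6 in 1.

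Among Scly KO libraries, S12 was the highest for Gsta1 (31.6 CPM, others 0.784 to 3.04), Gpc1 (75.1, others 12.1 to 23.8), Dgkh (6.29), Marveld2 (22.7), Gsdme (2.84) and Mlst8 (8.85 CPM). It was the lowest for Aldh16a1 (32.4 CPM, others 48.3 to 55.8) and Gm20337 (0.334 CPM). S12 also had the most genes with counts (16186) and the highest summed CPM of bile duct (953), stellate cell and fibroblast (1074) and neutrophil markers (11.9). S7 was the highest for Rad51b, at 11.3 CPM.

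Among WT libraries, S1 was the highest for Lifr (744 CPM, others 395 to 456), Aldh16a1 (108, others 56.2 to 63.7), Hmg20b (28.9), Lrrn3 (5.69) and Gsta1 (0.683 CPM) and the lowest for Bbs2 (0.683 CPM). S1 also had the fewest genes with counts (14044) and the highest summed CPM of Kupffer cell and macrophage (645), bile duct (414), stellate cell and fibroblast (814) and endothelial markers (552). S6 was the highest for Rad51b, at 2.25 CPM. The part of S1 and S12 in the separation was not tested, since genes that separate over 12 libraries stay separate when a library is left out, apart from small shifts as the others are scaled anew.

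No named gene had opposite, non-overlapping genotype differences on the diets or passed the threshold of the interaction by edgeR (79 genes examined).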

How the results depend on the processing

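Scly was called, and lower in Scly KO, in every setting run, with a log2 fold change between -3.97 and -3.88. For the genotype term, edgeR called 1 gene, and 1 to 2 with any library left out (with Moxd1 without S2, Hist1h4n without S3, and Arl4d without S5 or S9). DESeq2 called 16, limma-voom 14, edgeR without S7 and S8 4 and without S7, S8 and S12 14. On low selenium edgeR called 1, with 1 to 6 when a library was left out (6 without S11) and 3 without a filter, DESeq2 47 and limma-voom 300. On adequate selenium it called 1 with any library left out, DESeq2 3 and limma-voom 905. The interaction was called for 0 genes, for 0 to 3 with a library left out (3 without S11) and for 2081 by limma-voom. The 23 separated genes became 36 to 112 with a library left out (112 without S7), 1367 without S7 and S8, 1813 without S7, S8 and S12 and 36 without the dependence on length and GC content. Fewer libraries make separation easier by construction. Directions turned for Asns (-0.066 by limma-voom, -0.15 to 1.88 with a library left out, lowest without S12, and -0.080 without S7, S8 and S12), Psat1 (-0.074 by limma-voom and -0.30 without S7, S8 and S12) and Txnrd2 (0.0043 by limma-voom). The correlation across genes between diets of -0.243 became -0.488 to 0.273 with a library left out (0.030 without S4), 0.489 without S7 and S8 and 0.524 without S7, S8 and S12. It was -0.124 with the dependence on length and GC content taken out. The cause was not tested. No paired analysis was possible because the library columns carry no replicate numbers of the labels.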
